A study of Sus scrofa with 67 samples.

Results

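The autophagy genes described here are the rows ULK1, ATG14, MAP1LC3B, SQSTM1, BNIP3 and CTSL of a table of read counts from pig muscle. Of the 7 genes named for the set, 6 have a row of their own among the 18158 genes of the table, and GABARAPL1 was not analysed here. Autophagy encloses worn proteins and organelles in a double membrane, the autophagosome, and delivers them to lysosomes for breakdown. In muscle it recycles amino acids when feed or insulin is scarce, and many of its genes are known targets of the FOXO transcription factors. ULK1 is the kinase that starts the process, and ATG14 directs the lipid kinase complex that marks the site of the new membrane. MAP1LC3B, of the ATG8 family, is attached to the growing membrane and binds cargo receptors. SQSTM1 (p62) is such a receptor for ubiquitin-tagged proteins, BNIP3 is a mitochondrial protein that recruits the membrane to mitochondria, and CTSL is a lysosomal protease.

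The study sequenced RNA from longissimus dorsi, a back muscle, of 67 Swiss Large White pigs. The first period was weeks 1 to 4. During it, pigs were fed either the standard diet (STD, n = 6) or the low protein diet (LP, n = 6), whose total and digestible crude protein were set to 81% and 79% of the standard. The second period was weeks 5 to 8, with 12 libraries in each of its 4 groups. STD-STD pigs had eaten the standard diet throughout. The 3 groups with a low protein history were given the standard diet (LP-STD), or a diet with digestible lysine raised by 10% (LP-STD10) or by 20% (LP-STD20). The remaining 7 libraries carry the label BL, which is not explained, so their age and diet are not known. Females and castrated males from 20 litters were used, but the sex, litter and age behind each library are not given, and libraries of a group were taken as separate pigs.

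On Sscrofa11.1, RefSeq places ULK1 at chr14:23423693-23448130, BNIP3 at chr14:140362123-140371951, ATG14 at chr1:184701020-184743752, MAP1LC3B at chr6:1919879-1941069, SQSTM1 at chr2:78752768-78763998 and CTSL at chr10:27668523-27674705. The start of SQSTM1 overlaps MRNIP (chr2:78730611-78753152), and since the strand setting of the counting is not known, reads of the shared stretch cannot be assigned with certainty. RefSeq also lists CTSL as an older name of CTSV (chr10:25202360-25208058), which has a row of its own, so the name CTSL alone does not settle which cathepsin a reader has in mind. Both rows are given below.

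Libraries held 26680567 to 36935497 counts, and levels are CPM, a library's counts scaled to a common total, corrected with TMM factors over the 67 libraries. All 6 genes passed the filter on low counts in each fit. ULK1 had 2723 to 12089 counts per library, MAP1LC3B 2708 to 11297, SQSTM1 3585 to 43940 and BNIP3 3650 to 29569. ATG14 had 91 to 349 counts and CTSL 9 to 200, so counting error weighs more on these 2 genes. The tissue label was checked with summed markers of muscle fibres, of which 5 of 10 were measured (ACTA1, CKM, MYLPF, TNNT3 and DES). Their sum was 118318 to 325201 CPM. In bulk tissue, fewer cells of a type and less RNA per cell cannot be told apart.

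One library stands apart in these genes. BL replicate 4 was the highest of the 7 BL libraries in 6 of 6 autophagy genes and in 66 of 93 measured genes of the wider autophagy lists (71.0%). Over all 13517 genes tested it was the highest in 31.8% and the lowest in 32.9%, and each of the other 6 BL libraries was the highest in 9.58% to 12.8%. Its level of SQSTM1 was 1255 CPM against 122 to 187 in the other 6 BL libraries, and its level of BNIP3 was 844 CPM against 122 to 190. MAP1LC3B stood at 323 CPM against 88.7 to 120, ULK1 at 237 against 80.4 to 142, ATG14 at 9.96 against 3.39 to 6.69, and CTSL at 3.08 against 0.344 to 1.52.

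Other genes were far higher in BL replicate 4 as well. RETREG1, the receptor for autophagy of the endoplasmic reticulum, was at 614 CPM against 8.30 to 33.1 in the other BL libraries. FOXO3, a transcription factor that drives autophagy genes in muscle, was at 323 CPM against 34.2 to 57.8, and FOXO1 at 197 against 20.2 to 53.6. PDK4, a kinase that limits glucose oxidation and is raised in fasting muscle, was at 4249 CPM against 151 to 1561. Of the 20 regulators measured, 15 were highest in this library and 4 were lowest. Among those 4, DEPTOR was at 5.80 CPM against 111 to 233 and PRKAA2 at 14.8 against 29.4 to 49.0. The summed markers of fibroblasts (5 of 5 measured) were 1511 CPM in it against 4573 to 10537, those of endothelium (5 of 5) 198 against 300.0 to 412, and those of macrophages (10 of 10) 238 against 31.8 to 167. Its muscle fibre markers summed to 157000 CPM against 165542 to 276168. The part of these in its autophagy gene levels was not tested. Tests that involve BL are given below with and without this library.

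**Figure D1:**
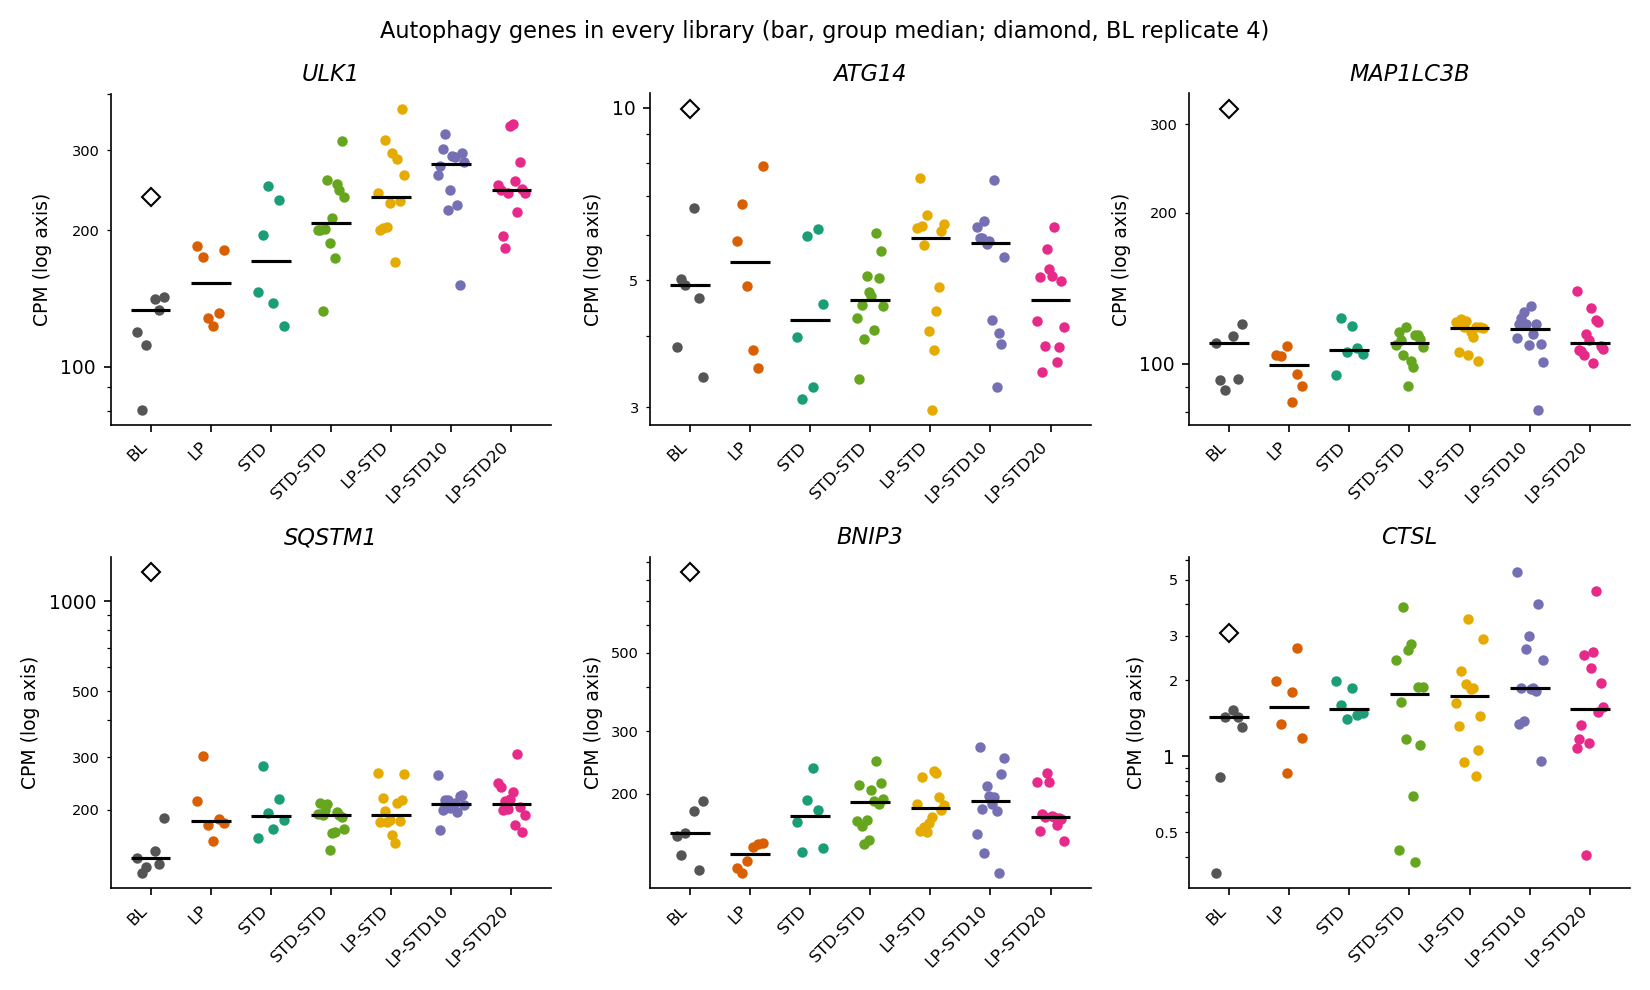
CPM on a log axis of the 6 autophagy genes in each of the 67 libraries, by group, with a bar at the group median and an open diamond for BL replicate 4. ULK1 medians run from 133 CPM in BL to 280 in LP-STD10, and the diamond at 1255 CPM for SQSTM1 and 844 for BNIP3 lies far above every other library.

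ULK1, the initiating kinase, had the smallest p of the 6 genes for a difference among the groups. Its lowest, median and highest CPM were 80.4, 133 and 237 in BL, 123, 153 and 185 in LP, and 123, 171 and 250 in STD. In the second period they were 132, 207 and 315 in STD-STD, 170, 237 and 371 in LP-STD, 151, 280 and 327 in LP-STD10, and 183, 246 and 343 in LP-STD20. Mean levels ran from 138 ± 48.7 CPM (SD, n = 7) in BL through LP, STD, STD-STD, LP-STD and LP-STD20 to 265 ± 47.4 (n = 12) in LP-STD10, a ratio of 1.92. Without replicate 4 the BL mean was 121 ± 23.4 (n = 6). In this order the ranges of neighbouring groups overlapped in 6 of 6 pairs, and no neighbouring pair differed past the threshold in its edgeR test. Across all 7 groups the test for any difference gave an adjusted p of 1.11e-06 in edgeR, and 2.07e-08 without BL replicate 4.

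That test called 2 of the 6 autophagy genes, ULK1 and BNIP3, where 44.8% of all genes were called, so the share is near that of genes at large. Of the 93 measured list genes 43 were called. BNIP3 passed narrowly (adjusted p = 0.0446, edgeR). Without BL replicate 4, a choice made after seeing the data, 4 of 6 passed against 46.1% of all genes, with BNIP3 at 0.00453, MAP1LC3B at 0.0266 and SQSTM1 at 0.000632 (adjusted p, edgeR).

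ATG14, of the lipid kinase complex, had group medians between 4.26 CPM in STD and 5.92 in LP-STD. Its means ran from 4.50 ± 1.32 CPM (SD, n = 6) in STD to 5.49 ± 2.23 (n = 7) in BL, and every pair of neighbouring groups overlapped (any difference, adjusted p = 0.438, edgeR). Without replicate 4 the BL mean was 4.75 ± 1.15 (n = 6), below those of LP, LP-STD and LP-STD10 (adjusted p = 0.414, edgeR). MAP1LC3B, the membrane tag, had a coefficient of variation of 6.32% to 11.6% within the second-period groups. Its lowest, median and highest CPM were 83.9, 99.5 and 108 in LP, 94.9, 107 and 123 in STD, and 101, 118 and 123 in LP-STD. The mean of BL was the highest of the 7 groups at 134 ± 83.8 CPM, but 103 ± 13.0 (n = 6) without replicate 4.

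SQSTM1, the p62 receptor, was likewise highest in BL. Its mean of 301 ± 421 CPM was the highest of all groups, and without replicate 4 it was 142 ± 23.6, below the mean of every other group. Those ran from 186 ± 19.2 in STD-STD to 216 ± 37.0 in LP-STD20. BNIP3, the mitophagy receptor, was at 254 ± 262 CPM in BL and 155 ± 25.9 without replicate 4. Its mean was lowest in LP, where the lowest, median and highest CPM were 120, 135 and 145, and the means of the remaining groups ran from 175 ± 37.1 in STD to 192 ± 44.2 in LP-STD10.

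The row named CTSL held few counts and varied widely, with coefficients of variation of 14.8% in STD to 61.2% in STD-STD. Its means ran from 1.42 ± 0.847 CPM in BL to 2.38 ± 1.26 in LP-STD10 and the groups overlapped throughout (any difference, adjusted p = 0.548, edgeR). Without replicate 4 the BL mean was 1.14 ± 0.463 (n = 6) and the adjusted p was 0.272. The row named CTSV was at 40.2 ± 2.69 CPM in LP and 41.6 ± 2.39 in STD, and at 64.1 ± 14.0 to 65.8 ± 10.6 in the 4 second-period groups. CTSV is not one of the 6 genes, and its values are given because of the shared name.

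The comparison of LP-STD with LP asks how muscle differed between pigs moved to the standard diet and pigs still on low protein. Period and diet change together here and cannot be told apart. LP libraries also fall in 2 stretches of library numbers, whose values are given below. ULK1 was higher in LP-STD, with 11 of 12 libraries above the highest LP library, and it rose by 0.71 ± 0.17 on the log2 scale (SE; 95% interval 0.37 to 1.04; adjusted p = 0.00180, edgeR quasi-likelihood test with Benjamini-Hochberg adjustment). It was the single autophagy gene of 6 called there, where 17.8% of all genes were called (8.78% higher and 9.04% lower). The call held in each of the 29 alternatives run, including each library left out in turn, with log2 differences of 0.61 to 0.77 and adjusted p of 0.000141 to 0.0371.

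BNIP3 was higher in 12 of 12 LP-STD libraries than in the highest LP library. The lowest, median and highest CPM were 120, 135 and 145 in LP and 156, 183 and 232 in LP-STD, so the groups did not overlap. The share of all genes that separate these groups in this way was not counted, which applies to CTSV below as well. Its log2 difference was 0.48 ± 0.21, with an adjusted p of 0.109 in edgeR over the 67 libraries, which share their estimate of the spread with BL replicate 4. Without that library it rose by 0.49 ± 0.12 (adjusted p = 0.00241), and in a fit of these 2 groups alone by 0.50 ± 0.0922 (adjusted p = 0.000726).

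MAP1LC3B followed the same course, with 9 of 12 LP-STD libraries above the highest of LP. Its log2 difference was 0.23 ± 0.13 (adjusted p = 0.223, edgeR), and without BL replicate 4 it rose by 0.25 ± 0.0718 (adjusted p = 0.00932). Without that library 3 of 6 genes were thus called, against 21% of all genes. The log2 differences of ATG14 (-0.02 ± 0.18) and CTSL (0.13 ± 0.37) had adjusted p of 0.959 and 0.857. CTSV rose by 0.68 ± 0.15 (adjusted p = 0.000829), with 12 of 12 LP-STD libraries above the highest LP library. Summed fibroblast markers moved in the same comparison, from 6342 to 11505 CPM (median 9269) in LP to 3056 to 7010 (median 4608) in LP-STD. Those of erythroid cells (2 of 4 measured) were 1.31 to 2.99 CPM in LP and 0.422 to 1.13 in LP-STD, without overlap, and those of endothelium had medians of 338 and 286. The part of these markers in the differences was not tested.

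In pigs kept on the standard diet (STD-STD against STD) 0 of 6 autophagy genes were called in edgeR, where 15.9% of all genes were (8.01% higher and 7.89% lower). An unadjusted p under 0.05 was found for 0 of the 6, and for 3956 of all 13517 genes. DESeq2 and limma voom with quality weights also called 0, beside 2378 and 2956 of all genes. Without BL replicate 4 the count was 0 beside 19.2% of all genes. The log2 difference of ULK1 was 0.27 ± 0.17 (adjusted p = 0.278), with 11 of 12 STD-STD libraries above the STD median but 3 above the highest STD library. BNIP3 was at 0.09 ± 0.21 and MAP1LC3B at -0.01 ± 0.13. CTSV rose by 0.65 ± 0.15 (adjusted p = 0.00139). The interaction asks whether the difference between periods itself differed between the diet histories. For ULK1 it was 0.44 ± 0.23 (unadjusted p = 0.0621, adjusted p = 0.609, edgeR), and 0 of 6 genes were called, against 0.163% of all genes. Without BL replicate 4 the unadjusted p was 0.0422 for ULK1, 0.0233 for BNIP3 and 0.0131 for MAP1LC3B, with adjusted p of 0.440, 0.373 and 0.307, where 0.23% of all genes were called. The differences of these genes in the LP history are therefore not shown to differ from those in the standard history.

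**Figure D2:**
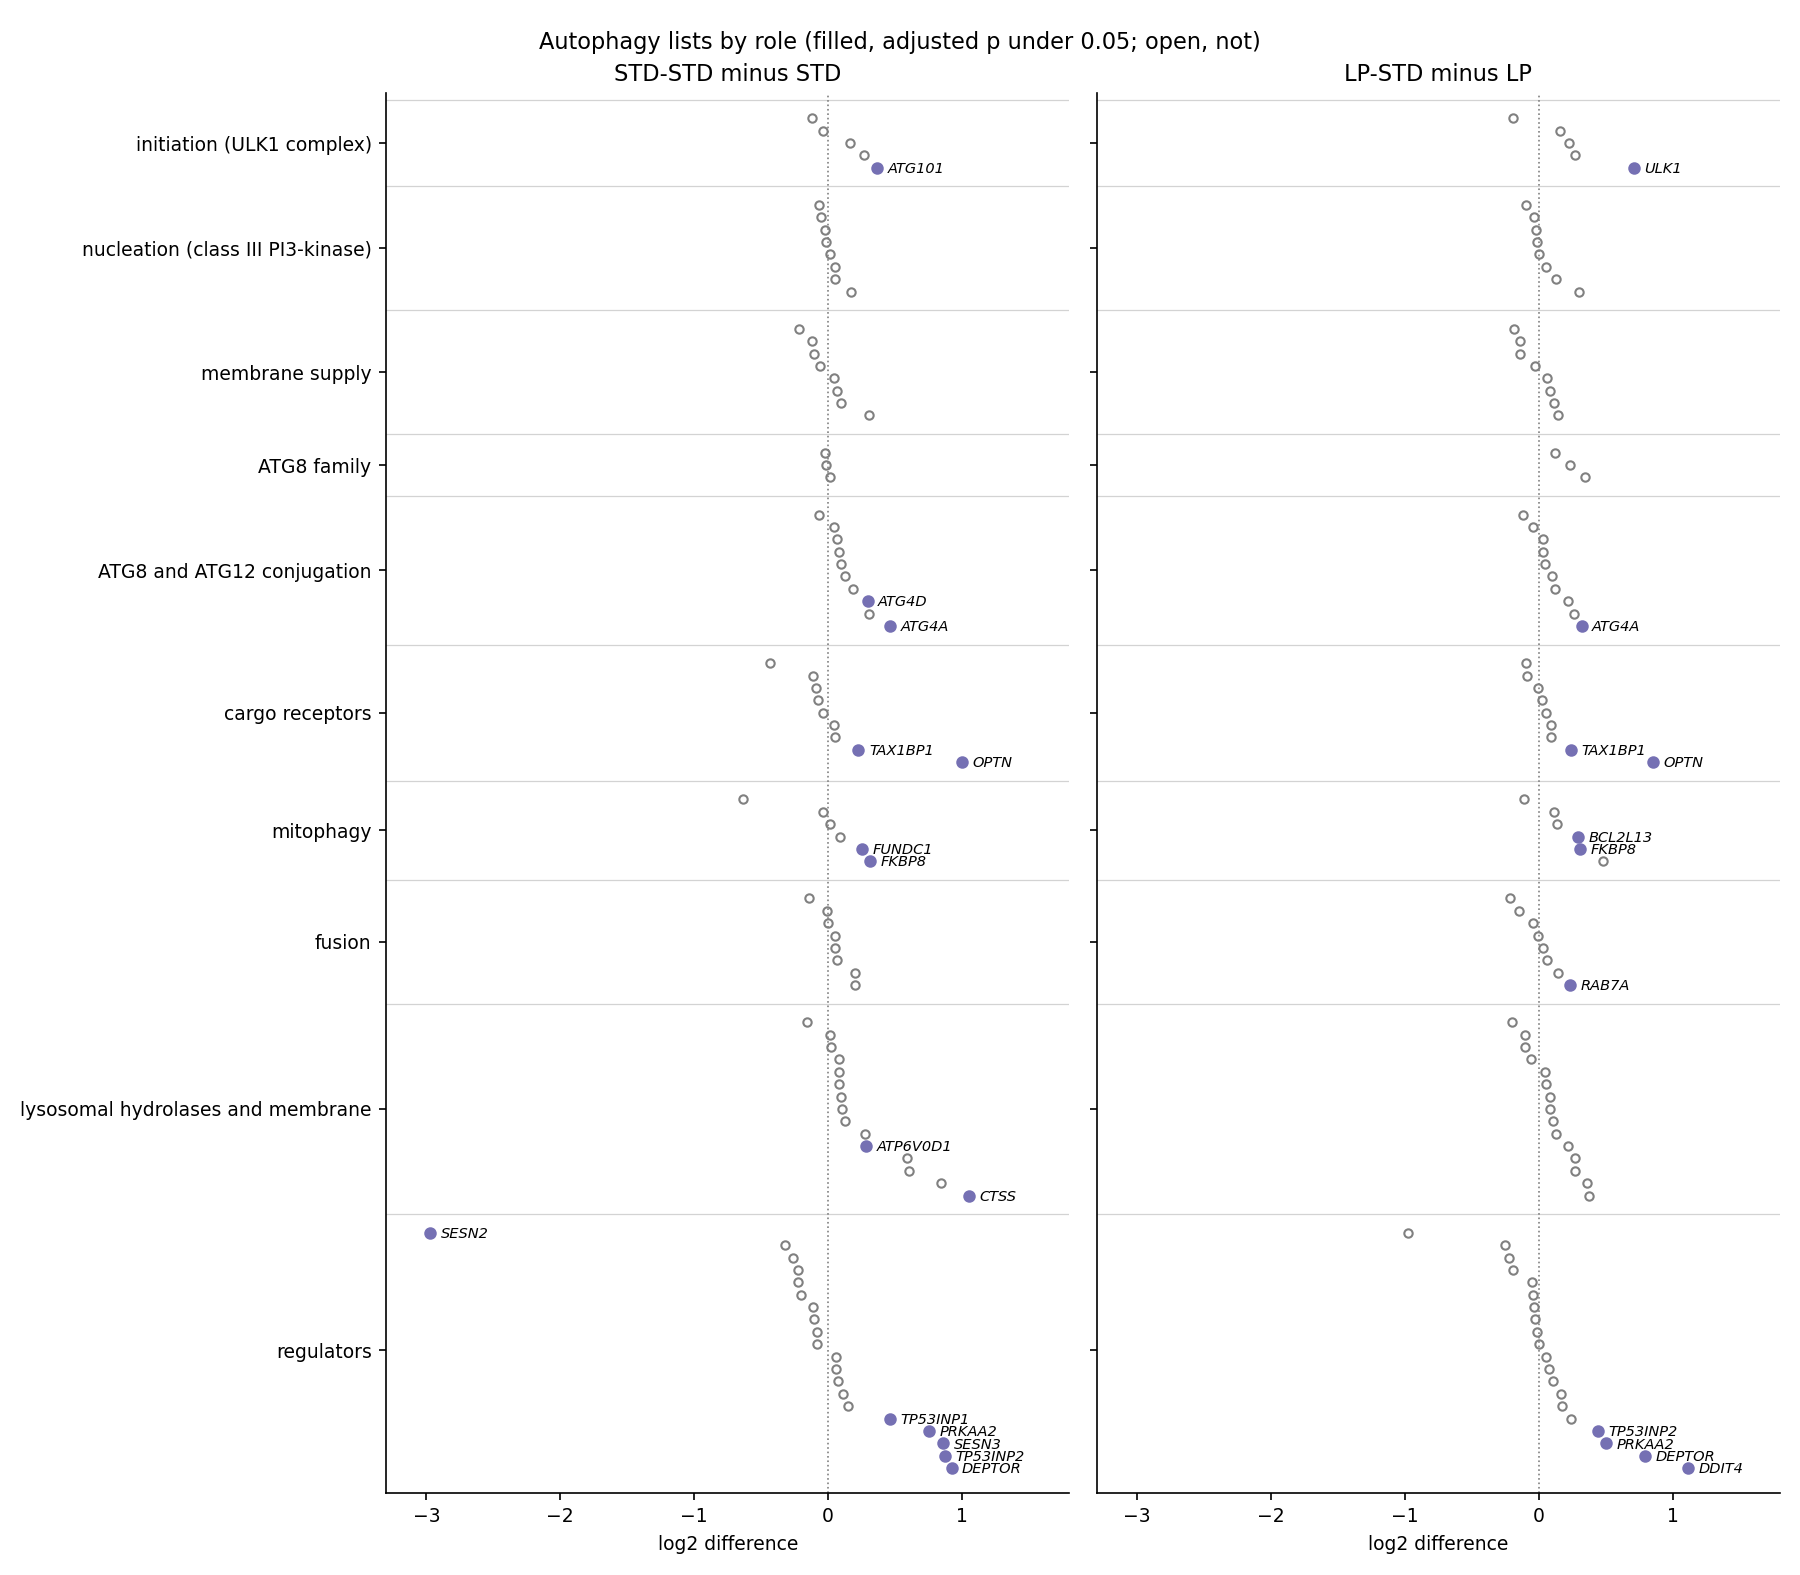
log2 differences of 92 of the 93 measured genes of the autophagy lists, by role, for STD-STD minus STD (left) and LP-STD minus LP (right), with named filled points where the edgeR adjusted p was under 0.05. Filled points lie to the right of 0 in both panels, except SESN2 at -2.97 on the left.

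The wider lists of autophagy genes, which hold 103 names of which 94 are in the table and 93 were tested, showed more rises than falls between the periods. In LP-STD against LP 12 of 93 rose and 0 fell, with a median log2 difference of 0.08 beside -0.03 for all genes. In STD-STD against STD 14 rose and 1 fell, with a median of 0.05 beside -0.01. The counts without BL replicate 4 were 17 and 0 in the first, and 14 and 4 in the second, where FOXO3, MTOR and WIPI2 fell beside SESN2. The called share was 12.9% and 16.1%, below and near the 17.8% and 15.9% of all genes. These lists were chosen with earlier results of these data known.

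OPTN, a receptor for ubiquitin-tagged mitochondria, rose in both comparisons. Its CPM was 68.2 ± 24.8 in LP and 123 ± 30.8 in LP-STD (log2 difference 0.85 ± 0.19, adjusted p = 0.000887), and 73.5 ± 28.9 in STD and 147 ± 34.2 in STD-STD (1.00 ± 0.19, adjusted p = 0.000151). FKBP8, another mitophagy receptor, rose by 0.31 in each (adjusted p = 0.00129 and 0.00149), and PRKAA2, the alpha subunit of AMP-activated kinase that phosphorylates ULK1, by 0.50 and 0.75 (adjusted p = 0.0177 and 0.000540). Without LP replicate 6 the former lost its call (0.42, adjusted p = 0.0828). TP53INP2, which helps recruit ATG8 proteins to the membrane, rose by 0.87 (adjusted p = 4.21e-05) in STD-STD against STD. It also rose by 0.44 (adjusted p = 0.0292) in LP-STD against LP, a call lost without LP replicate 1, 2, 3 or 6.

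BCL2L13, a mitophagy receptor, rose by 0.29 and TAX1BP1, a cargo receptor, by 0.24 in LP-STD against LP (adjusted p = 0.00996 and 0.00824). TAX1BP1 also rose by 0.23 in STD-STD against STD (adjusted p = 0.0139), a call lost without STD replicate 2. In STD-STD against STD, SESN3 rose by 0.86 (adjusted p = 0.00159) and ATG4A, a protease that processes ATG8 proteins, by 0.46 (adjusted p = 0.00113). ATG4A rose by 0.32 in LP-STD against LP as well (adjusted p = 0.0220), a call lost without LP replicate 1 or 3. SESN2, a stress-induced inhibitor of the growth kinase mTORC1, fell by 2.97 in STD-STD against STD (adjusted p = 0.00107). Its CPM spread from 13.3 to 147 in STD and from 3.92 to 29.9 in STD-STD.

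By role, 3 of 7 mitophagy genes (median 0.29), 2 of 9 cargo receptors, 4 of 20 regulators and 1 of 5 initiation genes rose in LP-STD against LP. So did 1 of 10 conjugation genes, 1 of 8 fusion genes and 0 of 15 lysosomal genes. Of all genes 8.78% were called higher there, and differences between roles were not tested. In both comparisons 0 of 8 genes of the lipid kinase complex, 0 of 8 of membrane supply and 0 of 3 of the ATG8 family were called in edgeR with all libraries. In LP-STD against LP, leaving out BL replicate 4, MAP1LC3B, MAP1LC3A and BECN1, of the lipid kinase complex, rose (the last by 0.14, adjusted p = 0.0393). WIPI2, of membrane supply, then fell by 0.21 in STD-STD against STD (adjusted p = 0.0318). BECN1, MTOR and WIPI2 were named here after their values were seen. Of the calls, 6 of 12 in LP-STD against LP (among them ULK1, OPTN, FKBP8, BCL2L13 and TAX1BP1) and 9 of 15 in STD-STD against STD (OPTN, TP53INP2, PRKAA2, SESN2, SESN3, ATG4A, FKBP8, ATP6V0D1 and DEPTOR) held with each library left out in turn.

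Against BL, the results of the first-period groups depended on BL replicate 4. In LP against BL, BNIP3 fell by 0.92 ± 0.24 on the log2 scale (adjusted p = 0.0102) and MAP1LC3B fell by 0.46 ± 0.15 (adjusted p = 0.0405, edgeR), so 2 of 6 genes were called against 6.46% of all genes (4.02% lower and 2.44% higher). Without BL replicate 4 the log2 differences were -0.22 ± 0.14 for BNIP3 and -0.09 ± 0.0821 for MAP1LC3B, with adjusted p of 0.429 and 0.649. With all libraries and its default handling of outlying counts, DESeq2 called 3 of the 6 genes and 1103 of all 13517. BNIP3 and MAP1LC3B were lower there, and SQSTM1 was higher by 0.42. Whether that handling altered the counts of BL replicate 4 was not examined. The call of MAP1LC3B was also lost without LP replicate 1, 3, 4, 5 or 6. SQSTM1 went from -0.57 ± 0.28 (adjusted p = 0.227) to a rise of 0.50 ± 0.13 (adjusted p = 0.0154), the 1 gene of 6 then called, against 3.88% of all genes. Each of the 6 LP libraries had more SQSTM1 than the BL median of 137 CPM.

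In STD against BL 0 of 6 genes were called in edgeR, against 6.7% of all genes (4.08% lower and 2.62% higher). An unadjusted p under 0.05 was found for 4 of the 6, and for 2745 of all 13517 genes. DESeq2 called 1 of the 6 and 1019 of all genes, and limma voom with quality weights 2 and 966. The log2 differences were -0.58 ± 0.28 for SQSTM1, -0.53 ± 0.23 for BNIP3, -0.30 ± 0.15 for MAP1LC3B and 0.39 ± 0.18 for ULK1. Without BL replicate 4 SQSTM1 rose by 0.50 ± 0.13 (adjusted p = 0.0128) and ULK1 by 0.57 ± 0.18 (adjusted p = 0.0418), against 4.84% of all genes called, while BNIP3 was at 0.17 ± 0.14 and MAP1LC3B at 0.08 ± 0.0821. Each of the 6 STD libraries had more SQSTM1 than the BL median. Both comparisons share the BL libraries, so their like values are not independent.

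**Figure D3:**
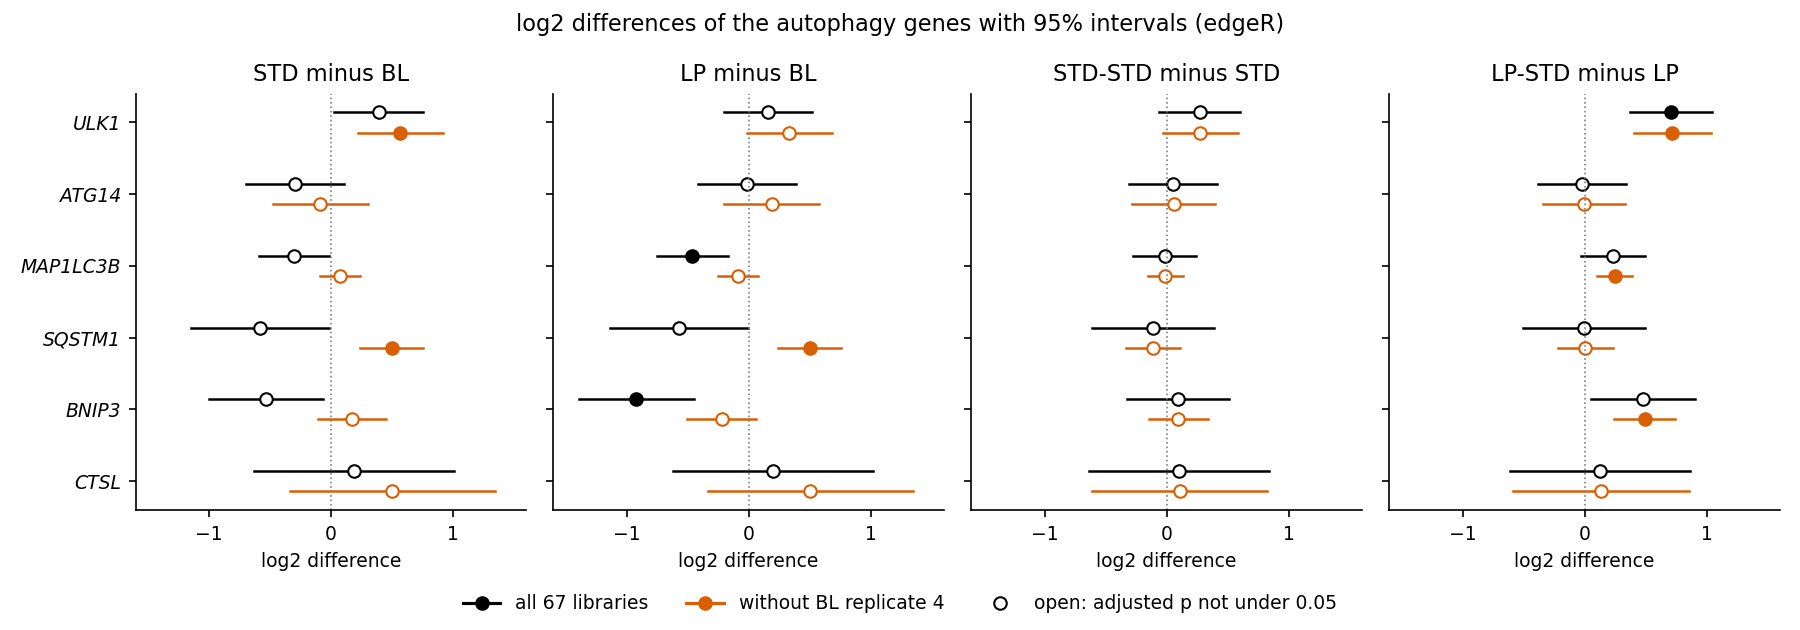
log2 differences of the 6 autophagy genes with 95% intervals in 4 comparisons, from all 67 libraries (black) and without BL replicate 4 (orange), filled where the edgeR adjusted p was under 0.05. SQSTM1 moves from -0.58 to 0.50 in STD minus BL and from -0.57 to 0.50 in LP minus BL, while ULK1 in LP-STD minus LP is filled in both.

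The wider lists depended on that library as well. In STD against BL 13 list genes fell and 3 rose, with a median of -0.08 beside -0.02 for all genes. That is 17.2% of the list, beside 6.7% of all genes (4.08% lower and 2.62% higher). Without BL replicate 4 0 fell and 6 rose, with a median of 0.04, and 4.84% of all genes were called. Of the 16 called genes 2 were called again, and these were NCOA4, a receptor for ferritin, and SESN2, the latter named after its values were seen. Among the genes that fell, RETREG1 went from -2.96 ± 0.71 (adjusted p = 0.00544) to -0.63 ± 0.53 (adjusted p = 0.572). FOXO1 went from -1.12 to -0.29, FOXO3 from -1.09 to -0.18 and SESN1, a relative of SESN2, from -1.06 to -0.14, with adjusted p of 0.272, 0.404 and 0.691 without that library.

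In LP against BL 12 fell and 2 rose, 15.1% of the list beside 6.46% of all genes, with a median of -0.10 beside -0.01. With BL replicate 4 left out, 4 fell and 3 rose, with a median of 0.02 and 3.88% of all genes called. MAP1LC3A, a close relative of MAP1LC3B, fell by 0.83 ± 0.16 (adjusted p = 0.000747) and, without that library, by 0.53 ± 0.13 (adjusted p = 0.00888). Its CPM was 41.7 to 65.0 in LP. ULK2, the relative of ULK1, fell by 0.59 ± 0.12 (adjusted p = 0.00102) and then by 0.47 ± 0.11 (adjusted p = 0.00712), and PINK1, a kinase that builds up on damaged mitochondria, by 0.56 ± 0.13 (adjusted p = 0.00514) and then by 0.46 ± 0.13 (adjusted p = 0.0265). PRKAA2 rose by 0.78 ± 0.17 (adjusted p = 0.00262) and then by 0.63 ± 0.16 (adjusted p = 0.0105). These 4 held with each library left out in turn.

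Between the 2 diets of the first period 0 of 6 autophagy genes were called, and 0% of all genes were (edgeR, 12 libraries, 1139 genes at an unadjusted p under 0.05). DESeq2 called 0 of the 6 and 109 of all 12584 genes, and limma voom with quality weights called 0 of both. BNIP3 had the lowest unadjusted p. It was at 120 to 145 CPM in LP and 136 to 237 in STD, with 4 of 6 STD libraries above the highest LP library, and its log2 difference LP minus STD was -0.39 ± 0.12 (95% interval -0.65 to -0.13; unadjusted p = 0.00572, adjusted p = 0.317). The other 5 genes had differences of -0.24 (ULK1) to 0.28 (ATG14), and the interval for ULK1 was -0.63 to 0.16. Among the 92 list genes tested 0 were called.

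In the second period the 6 comparisons among the 4 diets called 0 of 6 autophagy genes each, and 0 of 93 list genes. Against STD-STD, 0% of all genes were called for LP-STD, 0.399% for LP-STD10 and 0% for LP-STD20. Against LP-STD, the share was 0.407% for LP-STD10 and 0.046% for LP-STD20, and between the 2 lysine levels it was 0%. DESeq2 and limma voom with quality weights also called 0 of the 6 genes in each, while over the 6 comparisons they called 3 to 149 and 0 to 380 of all 13032 genes. The smallest p-values were those of SQSTM1 in LP-STD20 against STD-STD (0.22 ± 0.0808, unadjusted p = 0.0101, adjusted p = 0.404) and of ULK1 in LP-STD10 against STD-STD (0.28 ± 0.12, unadjusted p = 0.0233, adjusted p = 0.287). SQSTM1 was also at 0.18 ± 0.0808 in LP-STD10 against STD-STD (unadjusted p = 0.0321, adjusted p = 0.325), and no other unadjusted p was under 0.05. These comparisons share the STD-STD libraries.

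The 95% intervals give the range of differences between the lysine diets that the fit allows in these genes. They take the libraries of a group as independent, although these are numbered in runs of 4, described below. Between LP-STD20 and LP-STD the 95% interval of the log2 difference was -0.22 to 0.26 for ULK1, -0.12 to 0.11 for MAP1LC3B, -0.06 to 0.27 for SQSTM1 and -0.25 to 0.15 for BNIP3. For ATG14, which differed between runs within groups, it was -0.48 to 0.04. For CTSL, the gene with the fewest counts, it was -0.59 to 0.67. Between LP-STD10 and LP-STD the differences were -0.01 ± 0.0560 for MAP1LC3B, 0.04 ± 0.0996 for BNIP3, 0.07 ± 0.0808 for SQSTM1, 0.08 ± 0.12 for ULK1 and 0.42 ± 0.31 for CTSL.

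Second-period libraries are numbered in runs of 4 from the same group, 3 runs per group, and the labels do not say what a run shares. ATG14 was the single gene of 6 that differed between runs within groups (adjusted p = 0.0278, edgeR), where 5.68% of all genes and 8 of 93 list genes (8.60%) did. The unadjusted p of ULK1 was 0.0223 (adjusted p = 0.155) and the others ranged from 0.193 to 0.791. The 4 libraries of the first LP-STD run had 6.16, 7.54, 6.23 and 5.77 CPM of ATG14, and those of the second had 6.49, 4.08, 2.97 and 3.78. In LP-STD10 the first run had 5.92 to 6.35 CPM, the second 4.27 to 7.46 and the third 3.25 to 5.49. The 3 highest run means of ATG14 among the 12 runs were thus 6.42 CPM in the first of LP-STD, and 6.10 and 5.84 in the first and second of LP-STD10.

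The same 3 runs had the highest mean PDK4. Its mean was 485 ± 213 CPM (SD, n = 4) in the first run of LP-STD, and 624 ± 140 and 371 ± 134 in the first and second of LP-STD10. In the remaining runs of those groups the means were 9.43 to 19.3 CPM. Among LP-STD20 libraries ATG14 was highest in the second run, at 5.09 to 6.18 CPM, where PDK4 was at 5.38 to 39.6 CPM. In LP-STD20 the third run held a library with 224 CPM of PDK4 and 3.59 of ATG14, and had means of 67.9 and 4.13 CPM. In STD-STD the run means of ATG14 were 4.03 to 5.30 CPM with PDK4 at 2.06 to 24.2 CPM. Other list genes called between runs were PINK1 (adjusted p = 0.00606), MITF (0.0136), RETREG1 (0.0204), NBR1 (0.0283), ATG101 (0.0410), ATG2B (0.0469) and DDIT4 (0.0469). Of these MITF is a lysosomal gene regulator and NBR1 a cargo receptor related to SQSTM1. Whether a run shares a day, a pen or a preparation was not tested. In the first period, LP libraries also came in runs, numbered 8 to 9 and 16 to 19, whereas STD was 1 run. Mean CPM in these LP runs were 180 and 141 for ULK1, 6.32 and 5.02 for ATG14, and 104 and 94.4 for MAP1LC3B. They were 257 and 175 for SQSTM1, 122 and 140 for BNIP3, 1.67 and 1.63 for CTSL, and 335 and 36.5 for PDK4. Differences between the LP runs were not tested.

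**Figure D4:**
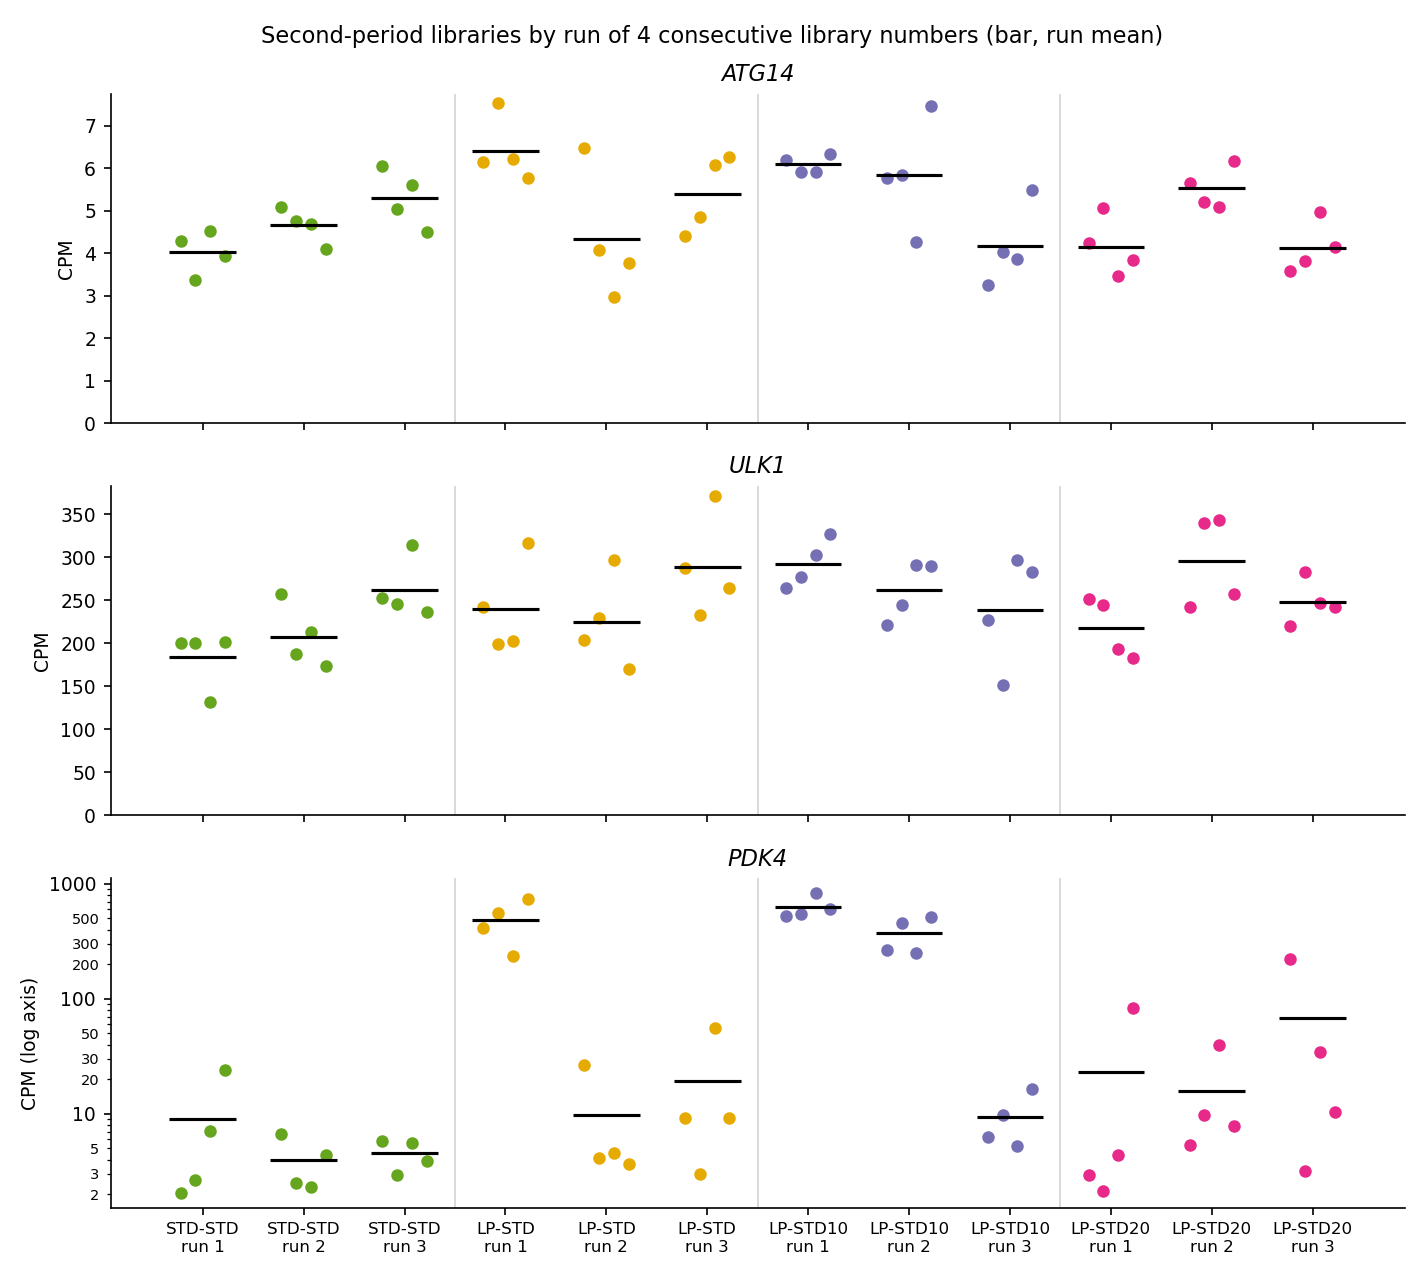
CPM of ATG14, ULK1 and PDK4 (PDK4 on a log axis) in the 48 second-period libraries by run of 4 consecutive library numbers, with a bar at the run mean. ATG14 run means span 4.03 to 6.42 CPM, and the 3 runs with the highest PDK4 means (371 to 624 CPM) have the 3 highest ATG14 means.

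Within groups, the autophagy genes varied together only in part. After removing group means, 15 pairs were compared over the 67 libraries. Of these, 6 passed by Pearson's r (permutation within groups, Benjamini-Hochberg over the pairs, two-sided) and 4 of the 6 by Spearman's rho as well, all 6 being positive. MAP1LC3B and SQSTM1 had r = 0.84 and rho = 0.57 (adjusted permutation p = 0.00015 and 0.0003), but BL replicate 4 weighed heavily on r. Without that library r was 0.45 and rho 0.50 (adjusted permutation p = 0.00255 and 0.00105). With the 2 libraries farthest from the median of MAP1LC3B left out after centring, r was 0.65. The BL mean removed there still included BL replicate 4, so this value is not free of its weight. Centring on the means of runs gave r = 0.87 and rho = 0.55.

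MAP1LC3B and BNIP3 had r = 0.73 and rho = 0.26 (adjusted permutation p = 0.0084 and 0.16), and without BL replicate 4 r = 0.29 and rho = 0.16 (0.0903 and 0.354). Centred on the means of runs, with all libraries, they were r = 0.78 and rho = 0.38 (0.0094 and 0.0343), so the rank relation passed in that setting alone. ULK1 went with MAP1LC3B at r = 0.51 and rho = 0.40 (adjusted permutation p = 0.00105 and 0.00506), and at 0.41 and 0.37 without BL replicate 4. ULK1 and ATG14 had r = 0.44 and rho = 0.43 (adjusted permutation p = 0.0051 and 0.00506), but within runs r = 0.32 and rho = 0.21 (0.137 and 0.281). SQSTM1 and BNIP3, both cargo receptors, had r = 0.63 and rho = 0.14 (adjusted permutation p = 0.167 and 0.391), and r = -0.09 without BL replicate 4. BNIP3 and CTSL had r = -0.05 with all libraries. Without BL replicate 4 they had r = -0.37 and rho = -0.29 (adjusted permutation p = 0.0125 and 0.0652), so the rank relation did not pass.

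**Figure D5:**
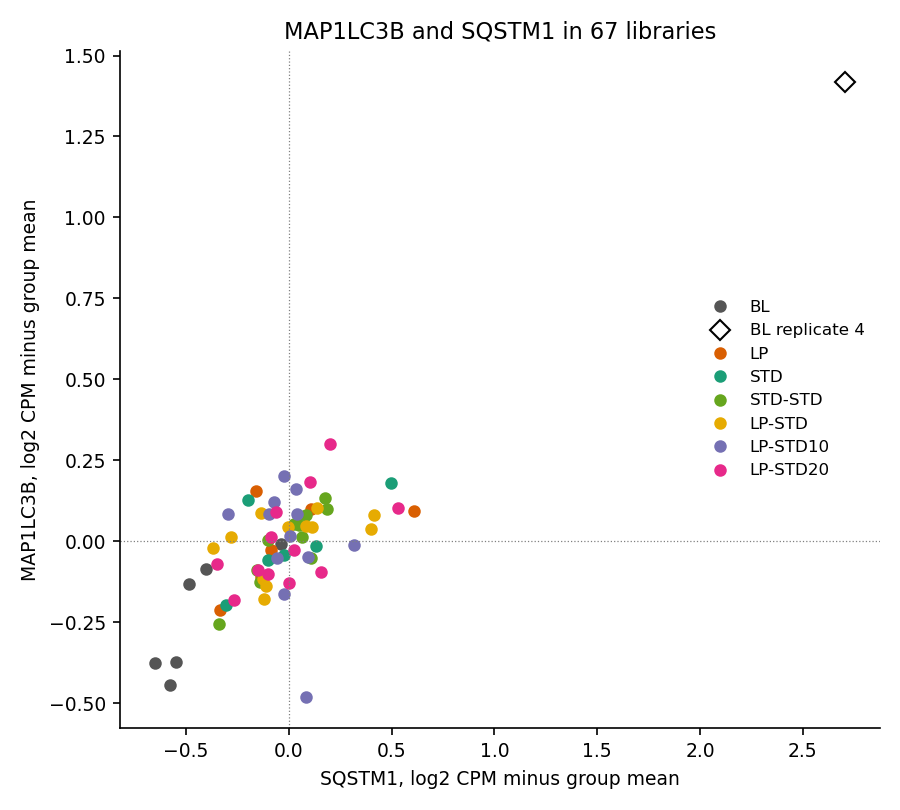
log2 CPM minus the group mean of MAP1LC3B against that of SQSTM1 in the 67 libraries, by group, with an open diamond for BL replicate 4. The diamond lies alone at the upper right, and the remaining 66 libraries have r = 0.45.

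The genes whose levels were most like each autophagy gene within groups were found among genes with an average log2 CPM of at least 1. For ULK1 these were UBE2B (r = 0.70), EXOC3 (0.63) and WIPI2 (0.63), a gene of the membrane supply list, over 67 libraries. For ATG14 they were CDKN1B (0.73), BRD8 (0.70) and FRG1 (0.68), and for CTSL STK17A (0.67), KIAA0930 (0.66) and EGR2 (0.63). Without BL replicate 4 the first of each stayed the first, with r of 0.67, 0.70 and 0.66. For MAP1LC3B, OSER1 (0.87), CAB39 (0.86) and PSMD7 (0.86) led with all libraries but DUSP26 (0.81) and ZBTB44 (0.78) without that library. SQSTM1 was led by WASHC3 (0.89), NSFL1C (0.89) and PSMD11 (0.88), then by THOC5 (0.55), KLHL30 (0.54) and ASB4 (0.53). BNIP3 was led by CAB39 (0.82), ST13 (0.81) and PSMD11 (0.80), then by YBX3 (0.73), SPEG (0.69) and ADCY2 (0.68). These r are descriptions of libraries that share their group means and depth.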

How the data were processed

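Per the labels' protocols, a RNeasy Plus Universal kit gave the muscle RNA. The authors deposited 1 table of raw read counts for 18158 gene symbols in 67 libraries. The submitters' processing notes name the build Sscrofa11.1 and the tool DESeq2. For the aligner, counter and strand setting, nothing is given in the sources used here. Groups come from the library titles and runs from the library numbers.

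The main test was the robust quasi-likelihood test of edgeR 4.0.16 (R 4.3.3), after filterByExpr and TMM scaling. P-values were adjusted by Benjamini-Hochberg over all genes, and a gene was called under 0.05. The contrast of LP and STD used 12 libraries (12584 genes), second-period comparisons and runs 48 (13032 genes) and the others 67 (13517 genes). Log2 differences are from these fits with their SE, and CPM are given with the SD or as lowest, median and highest. Correlations used log2 CPM with a prior count of 2, group means removed, and 100000 permutations within groups. The autophagy genes, lists and markers were chosen with earlier results of these data known. Named list genes are up to 4 per role with the lowest adjusted p in a comparison, and others are the 3 most alike genes of each autophagy gene, with PDK4 by run. A few genes that this rule names are not reported here, but stay in the counts.

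Alternatives were RLE factors, DESeq2 1.42.0, limma 3.58.1 voom with sample quality weights, leaving the counts unfiltered, a CPM filter of 1, a threshold of 0.10, other libraries in the fit, the replicate number as a block, blocks of 16 libraries, sums over runs, correlated runs and each library left out. The fits without BL replicate 4 for results other than the BL comparisons were added after seeing the data. P-values measure only the spread between libraries, which may be technical in part. Tests were also run on simulated counts, drawn independently for each library. These held no runs and no library like BL replicate 4, so they do not show how the tests behave with either. Coordinates are from the RefSeq table of Sscrofa11.1, in which 93.6% of names were found. Figures used Python 3.11.15 with matplotlib 3.10.9.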

Additional observations from a re-analysis of the deposited data

Results flagged for a closer look

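In BL replicate 4, 5 autophagy genes lay farther from the nearest other BL library than the spread of the 7 libraries allows by Dixon's criterion. These were ULK1 at 237 CPM, MAP1LC3B at 323, SQSTM1 at 1255, BNIP3 at 844 and CTSL at 3.08, each the highest of its group. The next libraries were at 142, 120, 187, 190 and 1.52 CPM. CTSL passed the criterion by little, with a gap of 0.569 of the range against a limit of 0.568. Groups of 4 to 10 libraries were examined, which gave 18 combinations of gene and group (BL, LP and STD). Chance flags about 1 in 20, but the 5 flags come from 1 library and are not independent. The share of all genes past this criterion in that library is not given here.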

How the results depend on the processing

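The 0 calls among the 6 autophagy genes in LP against STD, STD-STD against STD, the interaction and the 6 second-period comparisons stayed 0 in each alternative run. In LP-STD against LP, 1 gene became 3 when the fit held the compared groups alone and 2 with counts summed over runs. It became 3 with limma voom with quality weights, beside 3205 of all 13517 genes, and 3 without BL replicate 4, beside 21% of all genes. In LP against BL, 2 became 0 with only the compared groups, 0 with correlated runs, 1 with quality weights, 1 with summed runs, 1 without BL replicate 4 and 3 with DESeq2. In STD against BL, 0 became 2 with quality weights, 1 with DESeq2 and 2 without BL replicate 4. The test for any difference gave 2, and 4 without BL replicate 4. Leaving out each library gave 1 to 3, 1 to 2 and 0 to 2 in these 3 pairwise comparisons. The 3 in LP-STD against LP and the 2 in STD against BL came only from leaving out BL replicate 4. The difference of SQSTM1 reversed in STD against BL to 0.48 with quality weights, 0.42 with DESeq2 and 0.50 without BL replicate 4, and in LP against BL to 0.47, 0.42 and 0.50. Leaving out each library gave -0.72 to 0.50 in both, and the difference was positive only without BL replicate 4. The cause was not tested. Correlated pairs numbered 6, and 4 without BL replicate 4 and 4 centred on runs.

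Same-numbered libraries did not deviate together. In 0 of 21 pairs of groups was every correlation over 0.1, and 19 of 166 numbers matched best with their own number. With the replicate number as a block LP-STD against LP gave 2 calls and LP against BL 0. It changed no other count of calls. BL, LP and STD have few libraries, and CTSL and ATG14 few counts, which limits the precision of their differences.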

Other observations

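Values of 2 were more frequent than values of 1 in the count table (18638 against 3454). CTSL, with 9 to 200 counts, is the autophagy gene nearest to this low range.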
